A study of Rattus norvegicus with 23 samples.

Results

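Slc25 is a family of mitochondrial solute carriers, and 38 of its genes were measured in the livers of rats given reference hepatotoxicants or their vehicles. Members were the probe sets annotated to a single gene whose symbol was Slc25a followed by a number, which gave 51 probe sets of the 31042 tested. Each gene was then read from the probe set with its highest mean over the 23 samples, so that 38 carriers stood among 14217 genes. The rule goes by symbol alone, so relatives under other symbols, such as the uncoupling protein Ucp2, were not counted. Shares of the family given below are shares of these 38. Most Slc25 proteins sit in the inner mitochondrial membrane and exchange a substrate of the matrix for one of the cytosol. Through them liver mitochondria take in ADP, phosphate, fatty acyl groups, amino acids and vitamins and release ATP, citrate and intermediates of the urea cycle. A few relatives lie elsewhere, such as Slc25a17 in peroxisomes and Slc25a46 in the outer mitochondrial membrane.

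The samples were pieces of the left lateral liver lobe of separate male Sprague Dawley rats, 6 to 8 weeks old, which were dosed by mouth for 5 days and fasted overnight before necropsy. α-Naphthylisothiocyanate (ANIT, 100 mg/kg, n = 3), which injures bile ducts, was set against corn oil at 5 ml/kg (n = 3). Methylenedianiline (MDA, 100 mg/kg, n = 3), another bile duct toxicant, was set against 35% ethanol at 2 ml/kg (n = 3). Acetaminophen (APAP, 1000 mg/kg, n = 3) was set against corn oil at 2 ml/kg (n = 3), and diclofenac (DCLF, 10 mg/kg, n = 3) against water at 10 ml/kg (n = 2). Comparisons stayed within an in-life study, ANIT and MDA each coming from a study of their own and APAP and DCLF from one shared study. For corn oil at 5 ml/kg the sample titles carry different leading animal numbers but a common closing one, and were read as 3 rats. Each compound was given at a single dose, so no dose response could be read. The paper reported no histological liver findings for APAP or DCLF at these doses, and proposes that higher ones would have been needed.

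Values were log2 signals of an Affymetrix rat genome array, and a difference of 1 on this scale is a doubling of signal. Sample medians lay between 8.95 and 9.02. The labelled tissue was checked on hepatocyte markers, and all 7 measured lay at or above percentile 98.9 of probe set means. In 3 libraries, corn oil (5 ml/kg) replicate 2 and ANIT replicates 1 and 2, the brightest probe sets stopped lower than elsewhere, at 14.57 to 14.97 against 15.86 to 15.99 in the other 20 libraries. Among probe sets with a mean over the vehicles of 15 or more, the median deviation from that mean was -1.24 to -1.15 in the 3 libraries and 0.05 to 0.13 in the others. Among those with a mean between 12 and 13, where several carriers lie, it was -0.15 to -0.04 in the 3 libraries and -0.26 to 0.05 in the others. In this range the MDA samples read lower than their vehicle, at -0.24, -0.26 and -0.15 against -0.06, 0.02 and 0.04 with ethanol. The ANIT samples read -0.10, -0.15 and -0.23 against -0.01, -0.04 and 0.03 with corn oil. The part of this shift in the values of bright carriers was not tested. Where leaving out one of the 3 libraries with a lower top signal changed a call, the value without it is given. In tissue RNA, fewer cells of a type and less RNA per cell cannot be told apart.

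A carrier was called changed when its adjusted p from limma, taken over all probe sets, was under 0.05 and its fold change over 1.5. After ANIT, 4 of the 38 carriers rose and 5 fell. That is 10.5% and 13.2% of the family, against 3.84% of all genes called higher and 3.38% called lower. After MDA, 2 carriers rose and 8 fell, or 5.26% and 21.1% of the family, against 4.90% and 4.23% of all genes. The median size of the difference, whatever its sign, was 0.28 for the carriers and 0.14 for all genes with ANIT. With MDA it was 0.24 and 0.16, with APAP 0.11 and 0.09, and with DCLF 0.13 and 0.10. The all-gene values were not matched to the carriers for signal level. The 8 carriers that fell with MDA lay at percentiles 44.7 (Slc25a32) to 98.3 (Slc25a13) of probe set means. Probe sets with a mean between 12 and 13 read lower as a whole with ANIT and MDA, as given above. The part of signal level in these gaps, and in the later comparisons with all genes, was not tested. Neither APAP nor DCLF changed any carrier by limma, with 3 and 6 carriers at an unadjusted p under 0.05 (11.6% and 11.8% of all genes). Over all genes, limma called 0.324% for APAP and 0% for DCLF. The methods' t-test called 0 carriers in each, and the share of all genes it called is not given here.

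**Figure D1:**
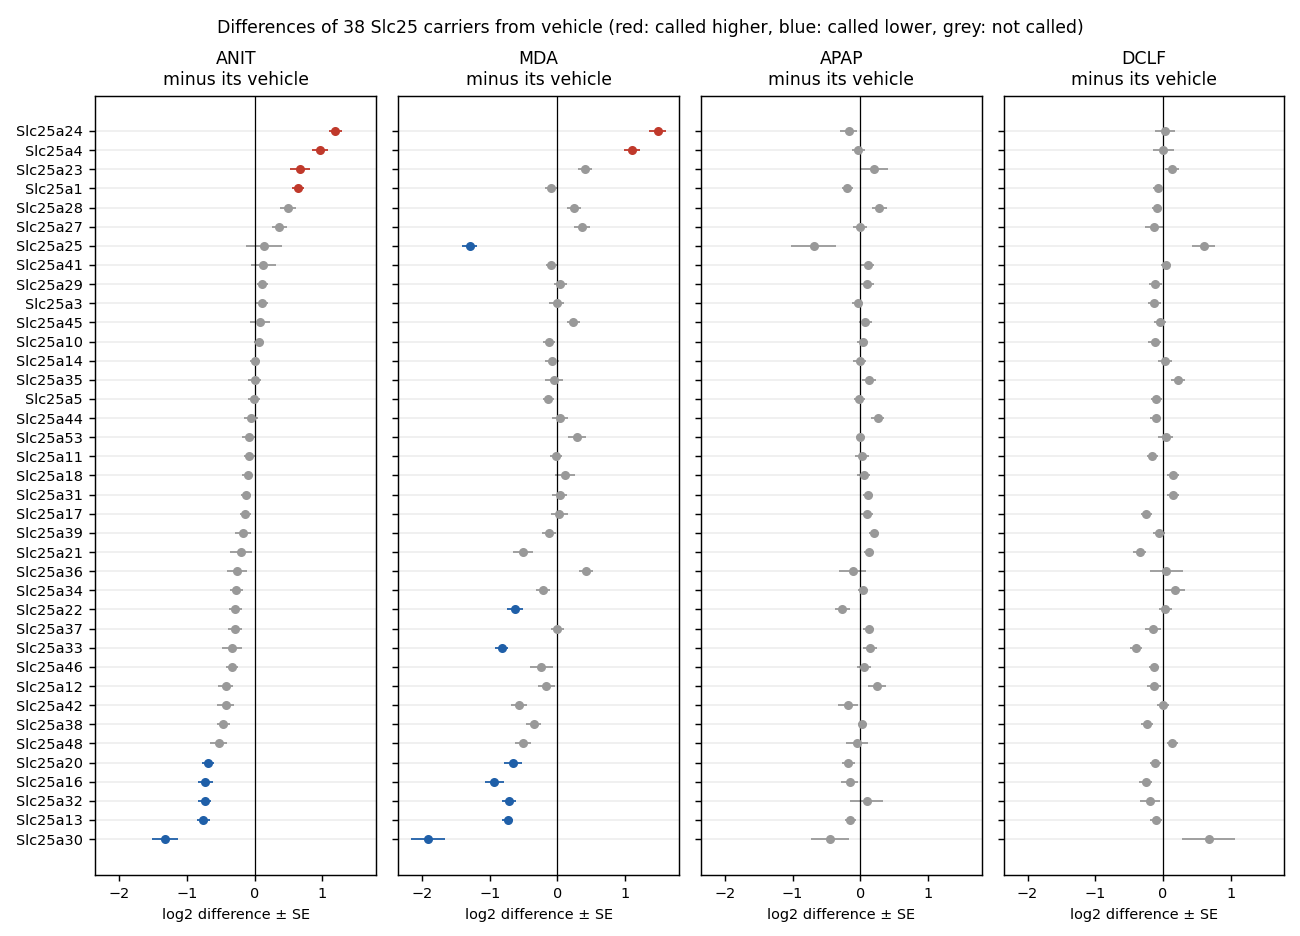
Log2 difference from vehicle with its standard error (horizontal axis) for the 38 Slc25 carriers (rows, ordered by the ANIT value) in the 4 comparisons, red where called higher, blue where called lower and grey where not called. Red and blue points appear for ANIT (4 and 5) and MDA (2 and 8), and all points for APAP and DCLF are grey.

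The promoters of 5 carriers are shown because these genes stand for the different patterns described next: Slc25a4 and Slc25a24 rose with both ANIT and MDA, Slc25a20 fell with both, Slc25a1 rose with ANIT and Slc25a25 fell with MDA. Each line gives the 250 bases before a start site of the gene listed in a RefSeq promoter table (assembly GRCr8), on the gene's own strand, with matches to the searched motifs in capitals. Slc25a4 lies on the plus strand (chr16:52805271-52805520), Slc25a24 on the plus strand (chr2:199449175-199449424), and Slc25a20 on the plus strand (chr8:118243323-118243572). Slc25a1 lies on the plus strand (chr11:96559804-96560053). Slc25a25 lies on the minus strand (chr3:36116582-36116831), and its window falls inside the annotated span of the gene, 36106448 to 36139812, so that it precedes an internal start and not the outermost one.
Slc25a4: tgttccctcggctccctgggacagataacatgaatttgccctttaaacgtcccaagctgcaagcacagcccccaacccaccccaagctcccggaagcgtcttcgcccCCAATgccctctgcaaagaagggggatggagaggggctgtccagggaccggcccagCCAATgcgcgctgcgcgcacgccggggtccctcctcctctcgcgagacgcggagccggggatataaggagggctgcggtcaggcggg
Slc25a24: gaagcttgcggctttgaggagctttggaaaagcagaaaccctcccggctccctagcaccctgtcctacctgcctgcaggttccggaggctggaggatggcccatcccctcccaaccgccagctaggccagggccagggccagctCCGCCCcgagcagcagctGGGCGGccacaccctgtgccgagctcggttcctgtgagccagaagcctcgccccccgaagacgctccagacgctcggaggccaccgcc
Slc25a20: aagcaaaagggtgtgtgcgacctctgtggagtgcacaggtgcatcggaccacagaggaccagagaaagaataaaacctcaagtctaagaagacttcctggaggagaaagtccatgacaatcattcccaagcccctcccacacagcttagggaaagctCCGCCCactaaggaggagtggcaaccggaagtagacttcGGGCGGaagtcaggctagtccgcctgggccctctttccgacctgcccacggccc
Slc25a1: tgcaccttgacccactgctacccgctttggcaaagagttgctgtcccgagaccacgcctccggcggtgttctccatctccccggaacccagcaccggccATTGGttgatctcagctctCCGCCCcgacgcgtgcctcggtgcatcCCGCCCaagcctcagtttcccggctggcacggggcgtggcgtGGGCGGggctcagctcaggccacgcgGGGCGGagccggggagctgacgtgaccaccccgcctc
Slc25a25: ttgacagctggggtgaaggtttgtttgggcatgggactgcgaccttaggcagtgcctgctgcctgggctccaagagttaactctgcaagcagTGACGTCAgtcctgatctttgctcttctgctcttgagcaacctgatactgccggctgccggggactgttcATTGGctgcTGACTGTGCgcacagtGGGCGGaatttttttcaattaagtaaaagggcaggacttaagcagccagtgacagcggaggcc

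In all, 10 motifs were searched on both strands of every promoter of this length. They were the CCAAT box (CCAAT, reading ATTGG on the other strand), the GC box (GGGCGG), the TATA box (TATAAA), the E box (CACGTG), the cAMP response element (TGACGTCA), the AP-1 site (TGANTCA), the NRF1 site (GCGCANGCG), the sterol regulatory element (TCACNCCAC), the nuclear receptor half-site (AGGTCA) and the antioxidant response element (TGACNNNGC). Slc25a4 held 2 CCAAT boxes, Slc25a24 and Slc25a20 each held 2 GC boxes, and Slc25a1 held 4 GC boxes and 1 CCAAT box. Slc25a25 held a cAMP response element, an antioxidant response element, a CCAAT box and a GC box. The table of promoters held 33 of the 38 carriers, with 34 promoters since Slc25a48 had 2, and Slc25a30, Slc25a32, Slc25a36, Slc25a37 and Slc25a46 were missing from it. Among the 33, 21 held a GC box and 18 a CCAAT box, where 30.5% and 34% of all 33469 promoters held them. The cAMP response element was in 2 carriers, Slc25a25 and Slc25a33, and in 1.59% of all promoters. The antioxidant response element was in 2 carriers, Slc25a25 and Slc25a48, and in 10.1% of all promoters. The remaining motifs were in 0 to 5 of the 33 carriers, the nuclear receptor half-site in 5 (14.1% of all promoters), the TATA box in 2 (12.9%), the E box in 3 (5.59%) and the AP-1 site in 1 (6.34%). The NRF1 site (5.09% of all promoters) and the sterol regulatory element (0.974%) matched in 0 carriers. These are matches of letters in one window of each gene, and nothing was measured at them.

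The ATP-Mg/phosphate carriers, which load and unload the adenine nucleotide pool of the matrix in a calcium-dependent way, gave the largest rise of the family and one of the largest falls. Slc25a24 read 8.87, 8.74 and 8.63 in the corn oil samples and 9.97, 10.05 and 9.79 after ANIT. It read 8.57, 8.75 and 8.58 with ethanol and 10.06, 10.36 and 9.91 after MDA. All 6 treated samples lay above all 6 vehicle samples of the same 2 studies. The differences were 1.19 ± 0.10 (SE, adjusted p = 0.00075, 2.28-fold) with ANIT and 1.48 ± 0.13 (adjusted p = 0.00049, 2.79-fold) with MDA, and the call held in every alternative tried. With APAP the difference was -0.17 (95% interval -0.46 to 0.12) and with DCLF 0.03 (-0.32 to 0.38).

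Slc25a25, a calcium-binding carrier of the same subgroup, fell with MDA. It read 11.84, 11.66 and 11.75 with ethanol and 10.54, 10.23 and 10.58 after MDA, a gap of more than 1 between the closest samples. The difference was -1.30 ± 0.11 (adjusted p = 0.00052), and this call too held in every alternative. After ANIT the samples read 11.13, 12.08 and 11.06 against 11.14, 11.14 and 11.57 with corn oil, so the groups overlapped, ANIT replicate 2 being the highest. The same gene was among the most variable carriers elsewhere, reading 11.43, 11.12 and 12.10 with corn oil at 2 ml/kg and 10.82, 10.26 and 11.50 after APAP. In that comparison the difference was -0.69 ± 0.33 with an adjusted p of 0.53. After DCLF it read 12.21, 12.19 and 11.99 against 11.81 and 11.24 with water, 0.60 ± 0.17 higher at an adjusted p of 0.30.

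Slc25a23, the third calcium-regulated ATP-Mg/phosphate carrier measured, rose with ANIT less firmly. The corn oil samples read 11.02, 11.13 and 11.53 and the ANIT samples 11.75, 12.08 and 11.84, a difference of 0.67 ± 0.15 (adjusted p = 0.029). The corn oil group at 5 ml/kg had the lowest vehicle mean of the 4 vehicles for this gene, 11.22, while the ethanol group had the highest, 11.89, so that 2 of the 3 ANIT samples lay at levels also read with vehicle in other studies. The call was lost without corn oil replicate 1 (0.56, adjusted p = 0.10), corn oil replicate 2 (0.62, adjusted p = 0.11) or ANIT replicate 2 (0.57, adjusted p = 0.079). It was also lost by the methods' t-test, at an unadjusted p under 0.01 and at an adjusted p (0.17), and on the mean of the gene's 3 probe sets (0.42), the 3 taken singly differing by 0.22 to 0.67. With MDA the difference was 0.40 (adjusted p = 0.039), under the fold threshold. Slc25a41, the calcium-independent relative, differed by 0.13 and -0.09 and was not called.

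Of the ADP/ATP carriers, which swap cytosolic ADP for matrix ATP, Slc25a4 rose and Slc25a5 was not called. Slc25a4, the isoform best known from heart and skeletal muscle, read 10.17, 10.17 and 10.24 with corn oil and 11.31, 11.29 and 10.87 after ANIT. It read 9.99, 9.92 and 9.76 with ethanol and 10.77, 11.17 and 11.02 after MDA. No treated sample overlapped its vehicle group. The differences were 0.96 ± 0.12 (adjusted p = 0.0037, 1.95-fold) and 1.10 ± 0.12 (adjusted p = 0.0013, 2.14-fold). Both calls were lost at the adjusted p of the methods' t-test (0.077 and 0.055). After APAP and DCLF the differences were -0.03 (95% interval -0.26 to 0.20) and 0.00 (-0.36 to 0.37). Of 4 muscle markers, 0 were called for ANIT and 1, Acta1, rose with MDA. Of all genes, 3.84% were called higher and 3.38% lower with ANIT, and 4.90% and 4.23% with MDA.

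Slc25a5, the ubiquitous ADP/ATP carrier, lay between 13.33 and 13.71 in all 23 samples, with differences of -0.01 for ANIT and -0.13 for MDA. The name table lists 10 pseudogenes or like-named genes for it, and its probe set could share signal with such copies. Slc25a31, the ADP/ATP carrier of the germ line, differed by -0.13 and 0.03, and Slc25a3, which brings phosphate to ATP synthase, by 0.10 and -0.01, and none of these was called.

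Both pyrimidine nucleotide carriers were measured, and Slc25a33 fell with MDA. It read 9.45, 9.49 and 9.36 with ethanol and 8.48, 8.75 and 8.59 after MDA, with no overlap (-0.83 ± 0.10, adjusted p = 0.0017, held in every alternative). Its ANIT samples overlapped corn oil, with a difference of -0.33 (adjusted p = 0.24). With DCLF it had the smallest adjusted p of any carrier, 0.29, at -0.40 ± 0.09. Slc25a36 was 0.42 higher with MDA (adjusted p = 0.031) and differed by -0.26 with ANIT (adjusted p = 0.36), and was called in neither. Its second probe set differed by 0.12 with MDA and 0.13 with ANIT.

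**Figure D2:**
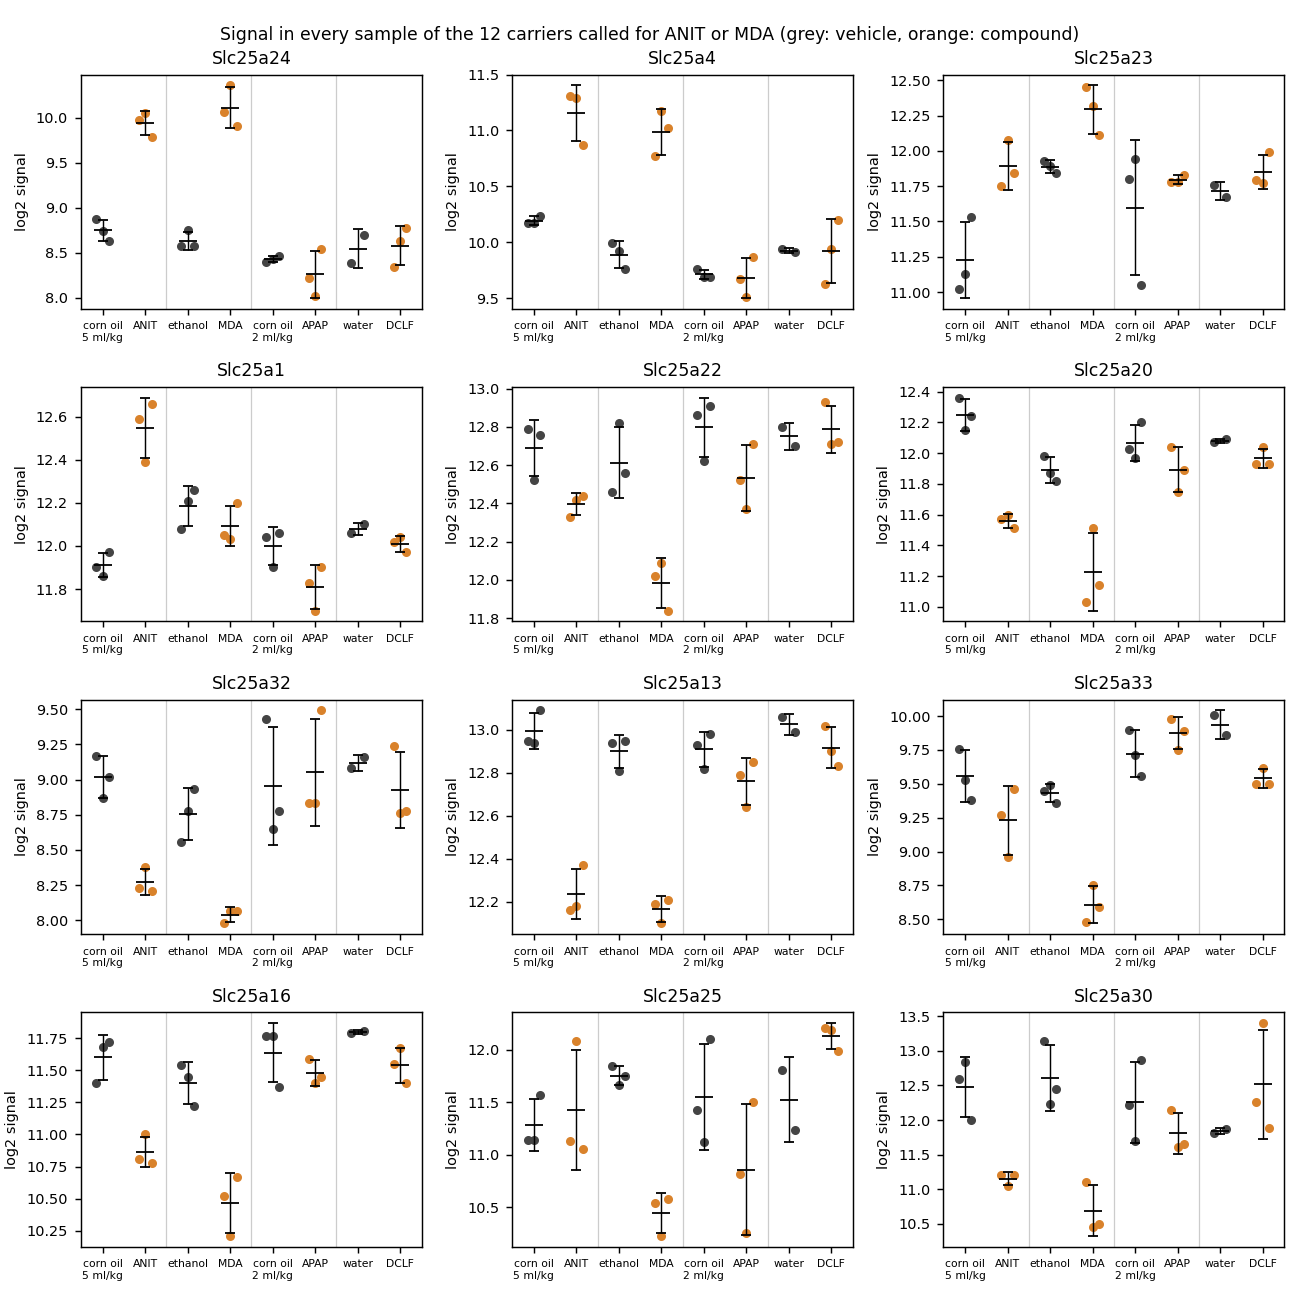
Log2 signal (vertical axis, scaled per gene) in every sample of the 12 carriers called for ANIT or MDA, by group, with grey points for vehicles, orange points for compounds and bars for the mean ± SD. Slc25a24 reads 9.79 to 10.36 in the ANIT and MDA samples and 8.63 to 8.87 in the corn oil samples of the ANIT study, while Slc25a25 and Slc25a30 scatter within several groups.

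Slc25a1 exports citrate to the cytosol, where ATP citrate lyase splits it to acetyl-CoA for fatty acid and sterol synthesis, and it rose with ANIT. It read 11.90, 11.86 and 11.97 with corn oil and 12.59, 12.39 and 12.66 after ANIT. With ethanol it read 12.08, 12.21 and 12.26, and 12.05, 12.03 and 12.20 after MDA, where the groups overlapped. The ANIT difference was 0.64 ± 0.09 (adjusted p = 0.0060, 1.55-fold), close to the fold threshold, and without ANIT replicate 3 it was 0.58 and under it. The MDA difference was -0.09 (adjusted p = 0.63). Tested directly, the ANIT difference exceeded the MDA difference by 0.73 ± 0.13 (adjusted p = 0.018), a call lost without corn oil replicate 1 (adjusted p = 0.058), corn oil replicate 2 (adjusted p = 0.057) or ethanol replicate 3 (adjusted p = 0.0502). Of the 4 vehicle means for this gene corn oil at 5 ml/kg was the lowest (11.91) and ethanol the highest (12.18).

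Of 9 measured genes listed for citrate export and fatty acid synthesis, 6 rose with ANIT and 0 fell, with a median difference of 1.46 against -0.02 over all genes. Over all genes 3.84% were called higher with ANIT, and 4.90% higher and 4.23% lower with MDA. With APAP 0.324% were called in either direction. The 3 with the smallest adjusted p were Acly, ATP citrate lyase (1.46), Fasn, fatty acid synthase (2.76), and Elovl6, a fatty acid elongase (2.07). After MDA 2 of the 9 rose, Acacb (0.97) and Fasn (0.86), and Scd, stearoyl-CoA desaturase, fell by 1.29. After APAP 1 rose, Me1, the cytosolic malic enzyme (1.03). The other dicarboxylate and keto acid carriers were not called: Slc25a10, the dicarboxylate carrier, differed by 0.06 with ANIT and -0.12 with MDA, Slc25a11, the oxoglutarate/malate carrier, by -0.08 and -0.03, and Slc25a21, which moves oxodicarboxylates, by -0.20 and -0.51 (adjusted p = 0.058).

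Slc25a20 brings acylcarnitines into the matrix in exchange for carnitine, the inner membrane step of the carnitine shuttle, and it fell with both bile duct toxicants. It read 12.36, 12.15 and 12.24 with corn oil and 11.57, 11.60 and 11.51 after ANIT. It read 11.98, 11.87 and 11.82 with ethanol and 11.03, 11.51 and 11.14 after MDA, so that neither treated group overlapped its vehicle. The differences were -0.69 ± 0.08 (adjusted p = 0.0027) and -0.66 ± 0.13 (adjusted p = 0.014). The MDA call was lost without ethanol replicate 2 (adjusted p = 0.051), without MDA replicate 1 (-0.56, under the fold threshold) and after quantile normalization (-0.55). It was lost as well by the methods' t-test, at an unadjusted p under 0.01 and at an adjusted p (0.12).

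Among other genes of the carnitine shuttle and of β-oxidation, 7 of 11 fell with ANIT and 5 of 11 with MDA, with median differences of -0.67 and -0.55 against -0.02 and 0.00 over all genes. The shares of all genes called lower were 3.38% with ANIT and 4.23% with MDA. With ANIT the leading genes were Crot, peroxisomal carnitine octanoyltransferase (-1.68), Slc22a5, the plasma membrane carnitine transporter (-1.16), and Hadhb of the trifunctional protein (-0.70). Cpt1a and Cpt2, the carnitine palmitoyltransferases on the outer and inner membrane, are added for their place beside Slc25a20 and were chosen after their values were seen (-0.90 and -0.78). With MDA Crot fell by 1.52, Hadha by 0.68 and Cpt1a by 1.18. With APAP and DCLF 0 of the 11 were called by limma, with medians of -0.23 and -0.14 against 0.02 and -0.03 over all genes.

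**Figure D3:**
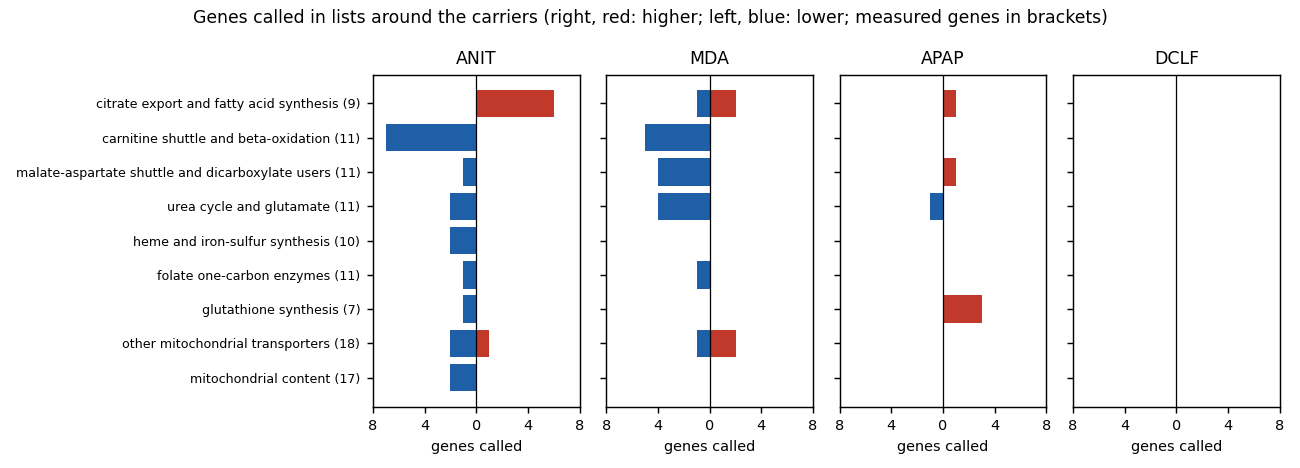
Number of genes called (horizontal axis) in 9 lists of genes around the carriers, with red bars to the right for higher and blue bars to the left for lower, the number of measured genes in brackets. For ANIT 6 of 9 citrate and fatty acid synthesis genes are higher and 7 of 11 carnitine and β-oxidation genes are lower, and the DCLF panel holds 0 calls.

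Of the 7 amino acid carriers, 0 rose and 1 fell with ANIT, and 0 rose and 2 fell with MDA. Over all genes 3.38% were called lower with ANIT and 4.23% with MDA. Slc25a13 (citrin), the liver aspartate/glutamate carrier of the malate-aspartate shuttle and the urea cycle, read 12.95, 12.94 and 13.09 with corn oil and 12.16, 12.18 and 12.37 after ANIT. It read 12.94, 12.81 and 12.95 with ethanol and 12.19, 12.10 and 12.21 after MDA. The 2 groups were apart in both studies, and the differences were of like size, -0.76 ± 0.09 (adjusted p = 0.0028) and -0.74 ± 0.09 (adjusted p = 0.0015). Its second probe set differed by -0.53 with ANIT, which was not called, and -0.63 with MDA, which was. Slc25a12, the aspartate/glutamate carrier of muscle and brain, was not called (-0.43 with ANIT, adjusted p = 0.052, and -0.16 with MDA).

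Slc25a22, a glutamate carrier, fell with MDA. It read 12.46, 12.82 and 12.56 with ethanol and 12.02, 12.09 and 11.84 after MDA, a difference of -0.63 ± 0.12 (adjusted p = 0.011). The difference was under the fold threshold without ethanol replicate 2 (-0.53), without MDA replicate 3 (-0.56) and after quantile normalization (-0.54). With ANIT Slc25a22 differed by -0.29 (adjusted p = 0.11) and was not called. Slc25a38, which supplies glycine for heme synthesis, was 0.47 lower with ANIT (adjusted p = 0.024), short of the fold threshold, in the same comparison in which 2 of 3 erythroid markers fell (Hbb at -1.35 and Alas2 at -1.40); the part of erythroid cells in its value was not tested. Slc25a18, Slc25a29 and Slc25a44 lay between -0.11 and 0.11 in both comparisons.

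Enzymes that share substrates with these carriers were called lower in part after MDA, where 4.23% of all genes were. Of 11 malate-aspartate shuttle and dicarboxylate genes 4 fell and 7 were not called, led by the aspartate aminotransferase Got1 (-0.87), pyruvate carboxylase Pc (-0.68) and Got2 (-0.74). Of 11 urea cycle and glutamate genes 4 fell and 7 were not called, led by ornithine aminotransferase Oat (-1.67), ornithine transcarbamylase Otc (-0.80) and glutaminase Gls2 (-0.61). After ANIT 1 of the first list fell, Pc (-0.69), and 2 of the second, Oat (-1.06) and Gls2 (-0.68), against 3.38% of all genes. After APAP Pck2 rose (0.75) and Oat fell (-1.08).

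Of the 6 carriers of cofactors, vitamins, glutathione and iron, 0 rose and 2 fell with each of ANIT and MDA, the same 2 genes in both. The shares of all genes called lower were 3.38% with ANIT and 4.23% with MDA. Slc25a16 read 11.40, 11.68 and 11.72 with corn oil and 10.81, 11.00 and 10.78 after ANIT, and 11.54, 11.45 and 11.22 with ethanol against 10.52, 10.21 and 10.67 after MDA. Its differences were -0.73 ± 0.11 (adjusted p = 0.0068) and -0.93 ± 0.14 (adjusted p = 0.0043). Both calls were lost at the adjusted p of the methods' t-test (0.088 and 0.086). Slc25a32, which carries folate and FAD, read 9.17, 8.87 and 9.02 with corn oil and 8.23, 8.38 and 8.21 after ANIT. With ethanol it read 8.56, 8.78 and 8.93 and after MDA 7.98, 8.07 and 8.07. Neither gene's treated samples overlapped the vehicle. For Slc25a32 the differences were -0.74 ± 0.10 (adjusted p = 0.0044) and -0.72 ± 0.11 (adjusted p = 0.0044). Its other probe set differed by -0.13 and -0.16, and the mean of both (-0.44 in each comparison) was not called. That other probe set was dim, with a mean of 5.67 at percentile 4.4 of probe set means, and can show little of a fall.

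Slc25a42, the coenzyme A carrier, was 0.57 lower with MDA (adjusted p = 0.020), just short of the fold threshold, and passed it without ethanol replicate 2 (-0.62), ethanol replicate 3 (-0.65) or MDA replicate 3 (-0.61). Its ANIT value was -0.43 (adjusted p = 0.085). Of the mitoferrins, which bring iron to the matrix, Slc25a28 was 0.49 higher with ANIT (adjusted p = 0.046) and Slc25a37 was -0.29, and neither was called. Slc25a39, a glutathione carrier, differed by -0.17 with ANIT, -0.12 with MDA and 0.20 with APAP, the last with the smallest adjusted p of any carrier in the APAP comparison, 0.38.

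Over all genes 3.38% were called lower with ANIT, 4.23% lower with MDA and 0.324% in either direction with APAP. In the heme and iron-sulfur list 2 of 10 genes fell with ANIT, ferrochelatase Fech (-0.75) and 5-aminolevulinate synthase Alas1 (-1.0), and 0 were called with MDA. In the folate list 1 of 11 fell with each, the mitochondrial enzyme Aldh1l2 (-0.59 and -0.73). In the glutathione list 1 of 7 fell with ANIT, Gclc (-0.72), while 3 rose with APAP, both subunits of glutamate-cysteine ligase, Gclm (1.02) and Gclc (0.96), and glutathione reductase Gsr (0.82). No carrier was called with APAP, Slc25a39 included.

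Slc25a30, a carrier related to the uncoupling proteins and first described in kidney, showed the largest falls of the family. It read 12.59, 12.84 and 12.004 with corn oil and 11.20, 11.05 and 11.21 after ANIT. It read 13.14, 12.23 and 12.45 with ethanol and 11.11, 10.46 and 10.50 after MDA. Both treated groups lay wholly below their vehicles, by 1.32 ± 0.19 (adjusted p = 0.0061, 2.50-fold lower) and 1.91 ± 0.25 (adjusted p = 0.0026, 3.77-fold lower). Both Slc25a30 calls were lost at the adjusted p of the methods' t-test (0.10 and 0.086). Its second probe set was called as well, at -2.00 with ANIT and -2.62 with MDA. It was also the carrier whose vehicle means were farthest apart, by 0.77 between water and ethanol, and its DCLF samples read 12.26, 13.40 and 11.88 against 11.81 and 11.87 with water (0.68 ± 0.39). Slc25a14 and Slc25a27, its relatives, were not called, at 0.01 and 0.36 with ANIT and -0.09 and 0.36 with MDA.

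None of the 7 relatives of other membranes or without a settled substrate was called. Of all genes, 3.84% were called higher and 3.38% lower with ANIT, and 4.90% and 4.23% with MDA. With only 7 genes, the lack of a call cannot be told apart from these shares. Slc25a48 came closest, -0.53 with ANIT (adjusted p = 0.038) and -0.51 with MDA (adjusted p = 0.030), and passed the fold threshold without ANIT replicate 3 (-0.65) or without ethanol replicate 2 (-0.62). Its second probe set differed by only -0.19 with ANIT (adjusted p = 0.29) and -0.23 with MDA (adjusted p = 0.50). The peroxisomal Slc25a17 differed by -0.14 and 0.03, and the outer membrane protein Slc25a46 by -0.33 and -0.24.

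The ANIT and MDA comparisons share no samples. Of the 12 carriers called in either, 7 were called in both and in the same direction, namely Slc25a4 and Slc25a24 higher and Slc25a13, Slc25a16, Slc25a20, Slc25a30 and Slc25a32 lower. These are 77.8% of the ANIT calls and 70% of the MDA calls of the family, while over all 14217 genes 522 were called in both in the same direction, or 50.9% of the ANIT calls and 40.2% of the MDA calls. Across the 38 carriers 26 had the same sign in both, and the differences correlated with Pearson's r of 0.80 and Spearman's rho of 0.70, a description across genes, which are not independent replicates. Over all genes 69.8% had the same sign in both, a share close to that of the carriers. The correlations over all genes were 0.66 and 0.60, both lower than in the family and with no test of that gap. In the test of the difference between the 2 effects 1 carrier was called, Slc25a1, against 1.67% of all genes. Its difference was 0.73 without corn oil replicate 1, 0.70 without corn oil replicate 2 and 0.69 without ethanol replicate 3, the fits in which the call was lost. Slc25a25 differed more in size, by 1.44 ± 0.32, with an adjusted p of 0.051, and it was called in 7 of 19 alternatives. Among these were the fits without ANIT replicate 1 (1.58, adjusted p = 0.041), ANIT replicate 2 (1.11, adjusted p = 0.027) and ANIT replicate 3 (1.62, adjusted p = 0.033). Slc25a24 and Slc25a30 differed between the compounds by -0.29 (95% interval -0.65 to 0.08) and 0.59 (-0.18 to 1.36), and neither was called.

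**Figure D4:**
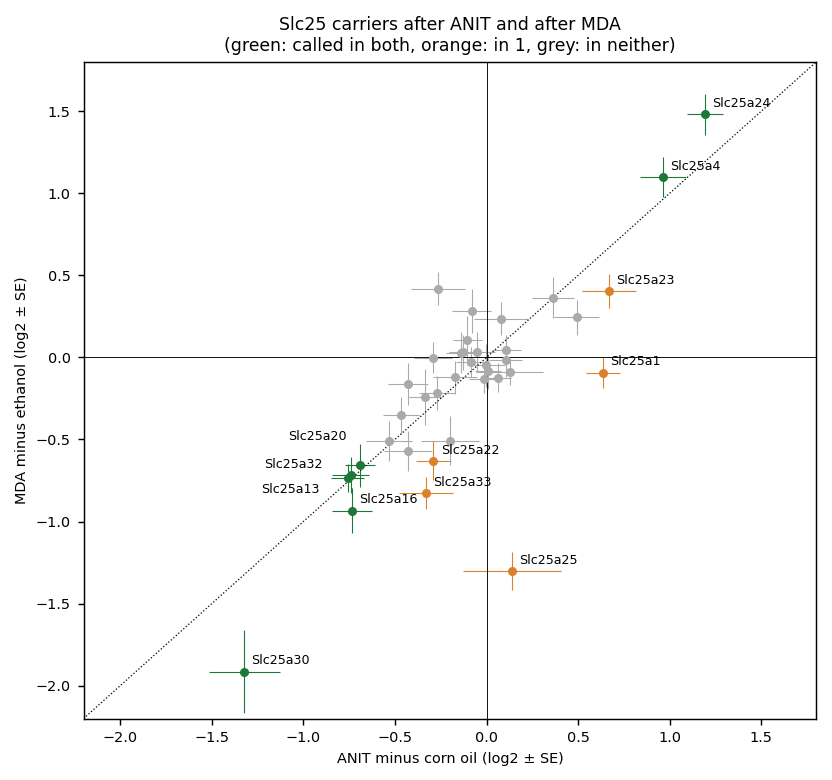
Log2 difference from vehicle with ANIT (horizontal axis) and with MDA (vertical axis) for 38 carriers, bars giving standard errors and the dotted line equal values, green where called in both, orange in 1 and grey in neither. The 7 green carriers have the same sign on both axes, with Slc25a30 and Slc25a24 at the ends, while Slc25a1 and Slc25a25 have opposite signs and lie to the right of the line.

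With APAP and DCLF, for which the paper reported no histological liver findings, the carriers stayed near their vehicles. The arrays set a bound on most of them: in each comparison the 95% interval of 34 of the 38 lay within a 1.5-fold change. With APAP the differences ran from -0.69 (Slc25a25) to 0.29 (Slc25a28), and the 3 with the smallest adjusted p were Slc25a39 (0.20, adjusted p = 0.38), Slc25a44, a carrier of branched-chain amino acids (0.26, adjusted p = 0.41), and Slc25a28 (0.29, adjusted p = 0.43). The second probe set of Slc25a39 differed by 0.04 with APAP and that of Slc25a44 by -0.07. With DCLF they ran from -0.40 (Slc25a33) to 0.68 (Slc25a30), and the 3 with the smallest adjusted p were Slc25a33 (adjusted p = 0.29), Slc25a25 (0.60, adjusted p = 0.30) and Slc25a21 (-0.34, adjusted p = 0.30). The difference between the 2 effects was called by limma for 0 carriers, against 0.134% of all genes. At an unadjusted p under 0.05 stood 8 carriers of the 38, and 13.6% of all genes. The widest was Slc25a25, at -1.29 ± 0.45 (adjusted p = 0.30).

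Of 17 markers of mitochondrial content 2 fell with ANIT, Tfam (-0.60) and Polg (-0.64), which maintain mitochondrial DNA, against 3.38% of all genes called lower, and 0 were called with MDA. The median differences of these markers were -0.10 with ANIT and -0.16 with MDA, where the medians of the 38 carriers were -0.12 and -0.09. The part of mitochondrial content in the carrier values was not tested. Of 18 other mitochondrial transporters, meaning those without an Slc25a symbol, Tspo, a cholesterol-binding outer membrane protein, rose with both (0.92 and 1.22). With ANIT the pyruvate carrier subunit Mpc2 (-0.88) and the sideroflexin Sfxn5 (-0.87) fell, and with MDA the uncoupling protein Ucp2 rose (0.60) and Mtch2 fell (-0.66).

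Markers of other liver cells moved in the same samples as the called carriers. Over all genes 3.84% were called higher and 3.38% lower with ANIT, and 4.90% and 4.23% with MDA. Of 5 cycling cell markers 5 rose with ANIT and 2 with MDA, the log2 of their summed signal going from 10.2 to 10.3 with corn oil to 12.1 to 13.0 with ANIT, and from 10.5 to 10.8 with ethanol to 10.9 to 11.9 with MDA. Of 7 stellate cell and fibroblast markers 4 rose and 1 fell with each, the sums being 13.2 to 13.5 and 13.6 to 13.9 in the ANIT study and 12.7 to 13.2 and 13.8 to 13.9 in the MDA study. Of 6 macrophage markers 3 rose with ANIT (13.6 to 13.7 against 13.9 to 14.4) and 6 with MDA (13.1 to 13.4 against 14.4 to 14.8). Of 5 bile duct markers 1 and 2 rose, the sums being 10.8 to 11.1 and 12.2 to 12.7 with ANIT and 11.4 to 11.5 and 12.03 to 12.44 with MDA. Of 7 hepatocyte markers 0 were called for ANIT and 1, Hnf4a (-0.65), for MDA. Their sums scattered widely in the ANIT study, 17.03 to 17.95 with corn oil and 17.01 to 18.12 with ANIT. These 2 groups hold the 3 libraries with a lower top signal, which limits what the 0 for ANIT can show. The sums were 17.88 to 17.97 with ethanol and 17.76 to 17.93 with MDA. Of 5 lymphocyte and 4 neutrophil markers 0 were called with ANIT, and 2 and 1 rose with MDA. Of 5 endothelial markers 2 fell with ANIT, Stab1 (-0.75) and Kdr (-0.73), and 0 were called with MDA. Of 3 erythroid markers 2 fell with ANIT and with MDA, and Hbb fell with APAP (-2.66), the only marker called in the APAP and DCLF comparisons. The part of these cells in the carrier values was not tested.

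The levels of most carriers were close between vehicles. The 4 vehicle means of a carrier spanned a median of 0.21, against 0.17 over all genes, and 5 carriers spanned over 0.5, namely Slc25a30 (0.77), Slc25a23 (0.66), Slc25a12 (0.56), Slc25a33 (0.50) and Slc25a48 (0.50). Within groups the median SD was 0.11 for the carriers and 0.11 for all genes. Slc25a25 and Slc25a30 varied most between rats of 1 group, with SDs up to 0.62 (APAP) and 0.79 (DCLF). For 11 carriers several probe sets were measured, and no called probe set had a partner with a difference of the opposite sign. Some probe sets without a call did, such as those of Slc25a36 with ANIT and of Slc25a44 with APAP.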

How the data were processed

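The authors hybridised liver RNA of single rats to the Affymetrix rat genome array and normalised the arrays by robust multi-array averaging (RMA) in Array Studio. The deposited values are on a log2 scale, and nothing was added to them before the main tests. Of 31099 probe sets, 57 Affymetrix controls were left out. Genes came from the platform annotation, where 20826 probe sets named a single gene, 436 several and 9780 none, with symbols updated by gene identifier for 20758 and 68 not found. The carriers were the probe sets with a single symbol of the Slc25a series, each gene read from its brightest probe set. Slc25a51 was left out since its 2 probe sets name several genes, and one gene is not reported here. Carbon tetrachloride samples were not analysed here.

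Each compound was compared with its vehicle in limma 3.58.1 (R 4.3.3) with empirical Bayes moderation, two-sided, and Benjamini-Hochberg adjustment over all 31042 probe sets. A call needed an adjusted p under 0.05 and a fold change over 1.5. Differences between effects were contrasts over the 4 groups concerned. The study's methods name a two-sided t-test, run here as an alternative and called the methods' t-test. Tested on simulated data with the real means and spreads, this procedure called 77% to 84% of 2-fold changes in the 4 comparisons with vehicle. Each group held 2 or 3 arrays, and their number limits the precision. Carriers called in a comparison were named with the value in every sample of that comparison. The 3 others with the smallest adjusted p in each comparison, and up to 3 leading genes of each list, were named with their difference. The members, gene lists and motifs were chosen with earlier results of these data known. Promoters were read from a RefSeq table (GRCr8). Figures were drawn in matplotlib 3.10.9.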

Additional observations from a re-analysis of the deposited data

Results flagged for a closer look

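The effect of ANIT on Slc25a1, the citrate carrier, exceeded that of MDA by 0.73 on the log2 scale (SE 0.13, adjusted p = 0.018 by limma), with values of 0.64 against corn oil and -0.09 against ethanol. It was flagged as the only carrier called in the direct test between the 2 compounds. That is 1 of 38 carriers (2.63%), against 1.67% of all genes called in the same test. All 3 ANIT samples lay above all 3 corn oil samples, while the MDA and ethanol samples overlapped. The call was lost without corn oil replicate 1 (adjusted p = 0.058), without corn oil replicate 2 (adjusted p = 0.057), one of the 3 libraries with a lower top signal, and without ethanol replicate 3 (adjusted p = 0.0502). Corn oil at 5 ml/kg had the lowest and ethanol the highest of the 4 vehicle means for this gene, 11.91 and 12.18. No formal test for single outlying samples was run, since every group held 2 or 3 rats.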

How the results depend on the processing

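The alternatives were the methods' t-test, another prior for the variances, all 23 samples in one fit, quantile normalization, median centring, leaving out the dimmest 25% of probe sets, averaging a gene's probe sets, dropping the fold threshold and leaving out each sample in turn. None of the named carriers changed sign under them. Of the values of single carriers under these alternatives, 439 kept their side of the thresholds, 31 lost a call and 11 gained one. With the adjusted p of the methods' t-test, which takes each probe set's spread from its own 2 groups, 2 carriers were called for ANIT (9 in limma) and 4 for MDA (10 in limma). The share of all genes called by this t-test is not given here, so these counts cannot be set against it. The calls that remained were Slc25a24 and Slc25a20 for ANIT, and Slc25a24, Slc25a25, Slc25a13 and Slc25a33 for MDA. For the difference between ANIT and MDA, 1 carrier was called, and 2 with the prior variance following the mean, with quantile normalization, without the dimmest 25% and on the mean of all probe sets. Leaving out single samples gave 0 to 2. The second carrier was Slc25a25. The cause was not tested. The counts of 0 for APAP, for DCLF and for the difference between them held in every alternative. No paired analysis was possible because each rat received 1 treatment and the replicate numbers follow the order of the samples.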
